A study of Drosophila melanogaster with 2 samples.

Results

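Cytochrome P450 genes were picked out by their symbols (Cyp followed by a digit) in a table of transcript read counts from the posterior midgut of Drosophila melanogaster, with the transcript of the highest mean read count standing for each locus. The rule found 80 of the 13822 loci. One of them, Cyp1, encodes a cyclophilin, a protein-folding enzyme that is no P450, and was set aside, which left 79 P450 genes: 22 of the Cyp4 group, 20 of Cyp6, 5 of Cyp9, 7 of Cyp12, 4 of Cyp28, 19 with numbers in the 300s, and Cyp18a1 and Cyp49a1. Loci whose symbol joins several genes were left out.

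P450s are heme enzymes that insert an oxygen atom into their substrate. Those of the endoplasmic reticulum take electrons from NADPH-P450 reductase (Cpr) and at times from cytochrome b5, and those of mitochondria take them from ferredoxin. Insect P450s belong to a mitochondrial clan and the CYP2, CYP3 and CYP4 clans. Many members of the CYP3 clan (Cyp6, Cyp9 and Cyp28 among them) and of the CYP4 clan act on plant toxins, drugs, insecticides or fatty acids, a few CYP2 and mitochondrial members make or inactivate ecdysteroid hormones, and the midgut, the Malpighian tubules and the fat body are the tissues best known for detoxification in the fly.

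All flies were 9-day-old females of the strain 5966GS-GAL4; UAS-Gli-RNAi, with a genotype otherwise labelled wild type. The driver is a GeneSwitch GAL4 that RU486, a steroid drug, switches on in enterocytes, and the transgene makes RNA interference against Gli (gliotactin), a protein of the junctions between enterocytes. The induced group received RU486 and the control group ethanol, so both carried driver and transgene. Drug and knockdown came together, and their effects on P450 genes cannot be told apart here. From 75 posterior midguts per condition, pooled at extraction, 3 poly(A) libraries were sequenced per condition. The labels call them biological replicates, but p-values measure only the spread between these libraries, which may be partly technical.

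The induced libraries held 14303722, 8111031 and 10032003 reads over 1 transcript per locus and the controls 7319238, 10914491 and 6821908. The normalised count of Gli was 882, 895 and 920 (induced) against 2066, 1973 and 1847 (control), a 2.18-fold fall. Enterocyte markers were abundant in every library. Their summed normalised count was 79366 to 81203 in the induced group and 74923 to 77308 in the controls. Of these 7 genes 3 rose and 2 fell, where 27.6% of all genes tested rose and 26.8% fell. Opposite moves lay within the sum, as Mur29B rose from a mean of 3579 to 18888.5 and Npc1b fell from 20644 to 10107. All 6 intestinal progenitor markers rose, from a summed 1287 to 1503 up to 3948 to 4142. Whole tissue was sequenced, so fewer cells of a type and less RNA per cell cannot be told apart in any value below.

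In the control midgut a few P450 genes held most of the family's transcripts. The level of a gene, in normalised reads per kilobase of transcript, was highest for Cyp6d5, at 14898 ± 512 (mean ± SD, n = 3). Cyp9b2 followed at 9416 ± 336 and Cyp6a23 at 8441 ± 459, and these 3 genes together made up 46.1% ± 0.149 of the summed P450 level. Then came Cyp12a4 at 4248 ± 254, a mitochondrial P450 whose overexpression gives resistance to the insecticide lufenuron, Cyp9f2 at 3817 ± 127, Cyp28a5 at 2494 ± 88.4, Cyp6g1 at 2142 ± 74.6 and Cyp4d14 at 1956 ± 58.7. The ranges of these 8 genes over the 3 control libraries did not overlap with that of the next gene in the order. Further down, the ranges of Cyp6a2, Cyp4d1 and Cyp12a5 overlapped between neighbours, at levels of 1832, 1769 and 1714, and so did those of Cyp4p1, Cyp4ad1, Cyp28d1 and Cyp4ac1, between 1018 and 1100.4. The 10 highest genes made up 71.8% of the summed level. The 20 highest genes had the same order in the authors' deposited signal. That signal scales the same reads by transcript length as well, so it is no separate check of the order.

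**Figure D1:**
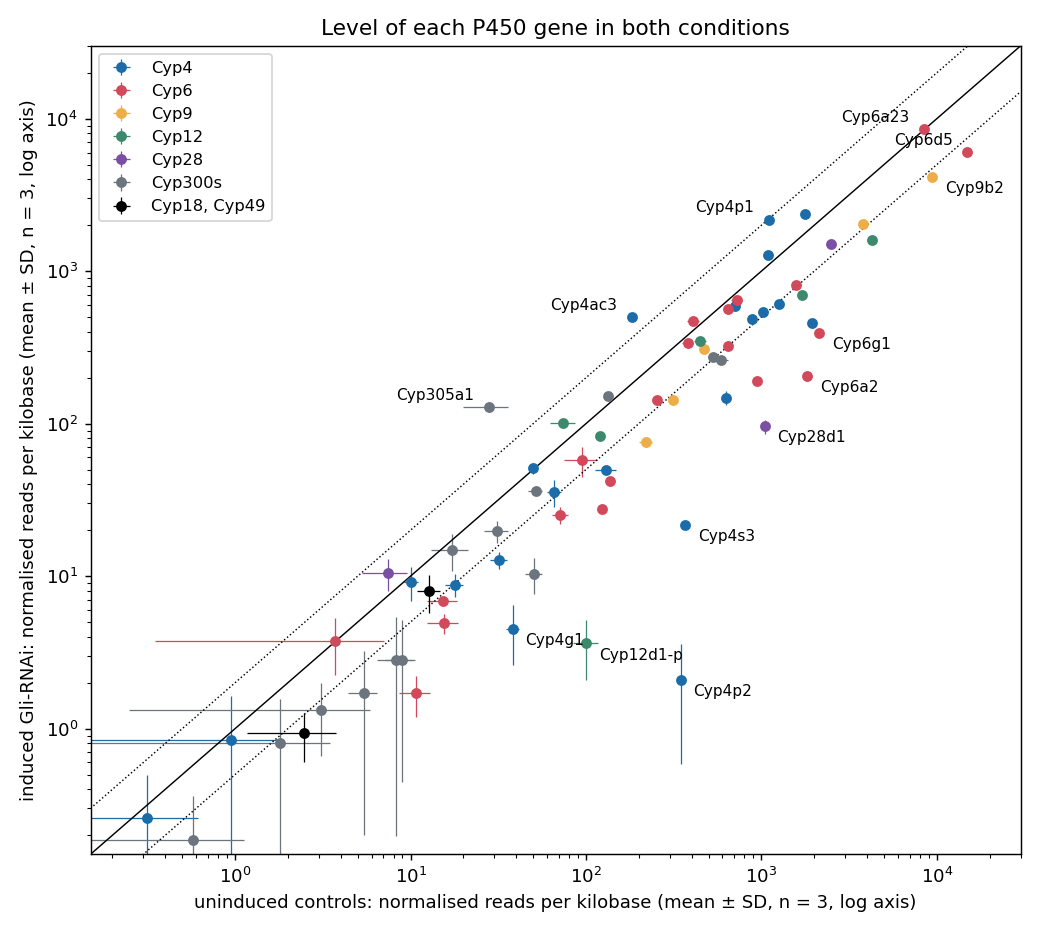
Level of each P450 gene with a read in the uninduced controls (horizontal) and with induced Gli-RNAi (vertical), in normalised reads per kilobase on log axes, as mean ± SD over 3 libraries, coloured by subfamily group; bars that reach below the axis are clipped. The solid line marks equal levels and the dotted lines a 2-fold difference; most points sit below the solid line, Cyp4p2, Cyp12d1-p, Cyp4s3, Cyp28d1 and Cyp6a2 far below it, and Cyp305a1 and Cyp4ac3 above it.

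At the other end, 6 genes had 0 of 57502393 reads over all libraries: Cyp12d1-d, Cyp4d21, Cyp308a1, Cyp313a2, Cyp313a3 and Cyp313a5. A floor of 3 reads allows each of them up to 5.22e-06% of all reads, counting error only. Together with these, 16 genes fell below the filter on low counts. They had 64 reads in the induced and 86 in the control libraries in all, and 9 of them are numbered in the 300s. Among the rest were Cyp18a1, which inactivates ecdysteroids, with 9 reads induced and 15 control, and Cyp6t3, an enzyme of ecdysteroid synthesis in larvae, with 21 and 15.

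Most P450 genes with enough reads had lower counts when Gli-RNAi was induced. Of 63 tested genes, 49 fell and 7 rose at an adjusted p under 0.05 (edgeR quasi-likelihood test, Benjamini-Hochberg over 8236 genes). Among all genes tested 26.8% fell and 27.6% rose, or 54.3% in either direction. A fall of at least 2-fold was found for 30 P450 genes, against 7.44% of all genes, and a rise of at least 2-fold for 2, against 5.55%. The median log2 fold change was -0.97 over the tested P450 genes and 0.03 over all genes. The 3 libraries of one condition did not overlap with those of the other for 57 of the P450 genes and for 60.4% of all genes. Of the 63 genes, 7 (Cyp4p2, Cyp12d1-p, Cyp4g1, Cyp6a22, Cyp6w1, Cyp301a1 and Cyp304a1) reached the filter level in all control libraries but not in all induced ones, so that their direction was largely set by how they entered the test. Cyp28d2 reached it in all induced libraries but not in all control ones, with groups that overlapped. Among the 55 genes above the filter level in all 6 libraries, 42 fell and 7 rose. Scaling by library totals moved the median of all genes by 0.19 and that of the P450 genes to -0.78, with 10 rising and 43 falling.

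Falls were found at every level of expression, though at the lowest level in part among genes that the filter favoured. Split into 3 groups of equal size by their mean level over all libraries, 17 of the 21 lowest genes fell, 15 of the 21 in the middle and 17 of the 21 highest. Among the lowest, Cyp12d1-p, Cyp4g1, Cyp6a22, Cyp6w1, Cyp301a1 and Cyp304a1 fell but passed the filter through the control libraries alone. So did Cyp4p2 in the middle. The direction of these genes was largely set by how they entered the test, and the counts by clan include them. For all genes split the same way, 20.5%, 21.6% and 38.1% fell. Over all of them together 26.8% fell and 27.6% rose. By clan, 24 of 29 tested CYP3 genes fell and 1 rose (median -1.13), 17 of 24 CYP4 genes fell and 4 rose (median -0.90), and 7 of 8 mitochondrial genes fell and 1 rose (median -1.03), while of the 2 tested CYP2 genes Cyp304a1 fell and Cyp305a1 rose. No test of a difference between clans or subfamilies was made.

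Among markers of other cell types and tissues falls were also found. Of all genes tested 26.8% fell, 27.6% rose and 54.3% were called in either direction. All 6 tested Malpighian tubule markers fell. The summed normalised count over the 9 measured was 1236 to 1281 in the induced libraries against 1689 to 1839 in the controls. Most of that sum was hth, with a mean of 1027 against 1168 (log2 fold change -0.19 ± 0.0621). All 3 tested hindgut markers fell, from 76.4 to 95.2 down to 29.7 to 38.1 over the 4 measured. Of 6 tested fat body markers 4 fell, with sums over the 8 measured of 2737 to 2951 against 4864 to 5171, and the fat body genes Fbp1 and Lsp2 had 1 read per condition. Among 9 enteroendocrine markers 5 fell and 1 rose, with sums of 5590.1 to 5880 against 7606 to 7635, and of the 6 visceral muscle markers 1 rose and 1 fell, with sums of 11238 to 11622 against 10939 to 11385. None of the measured markers was at 0 reads in both conditions. The tubule-specific urate oxidase gene Uro had a normalised count of 8.22, 15.7 and 11.8 with RNAi induced against 44.8, 63.7 and 59.2. The part of these markers, and of those of enterocytes and progenitors, in the fall of P450 genes was not tested.

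**Figure D2:**
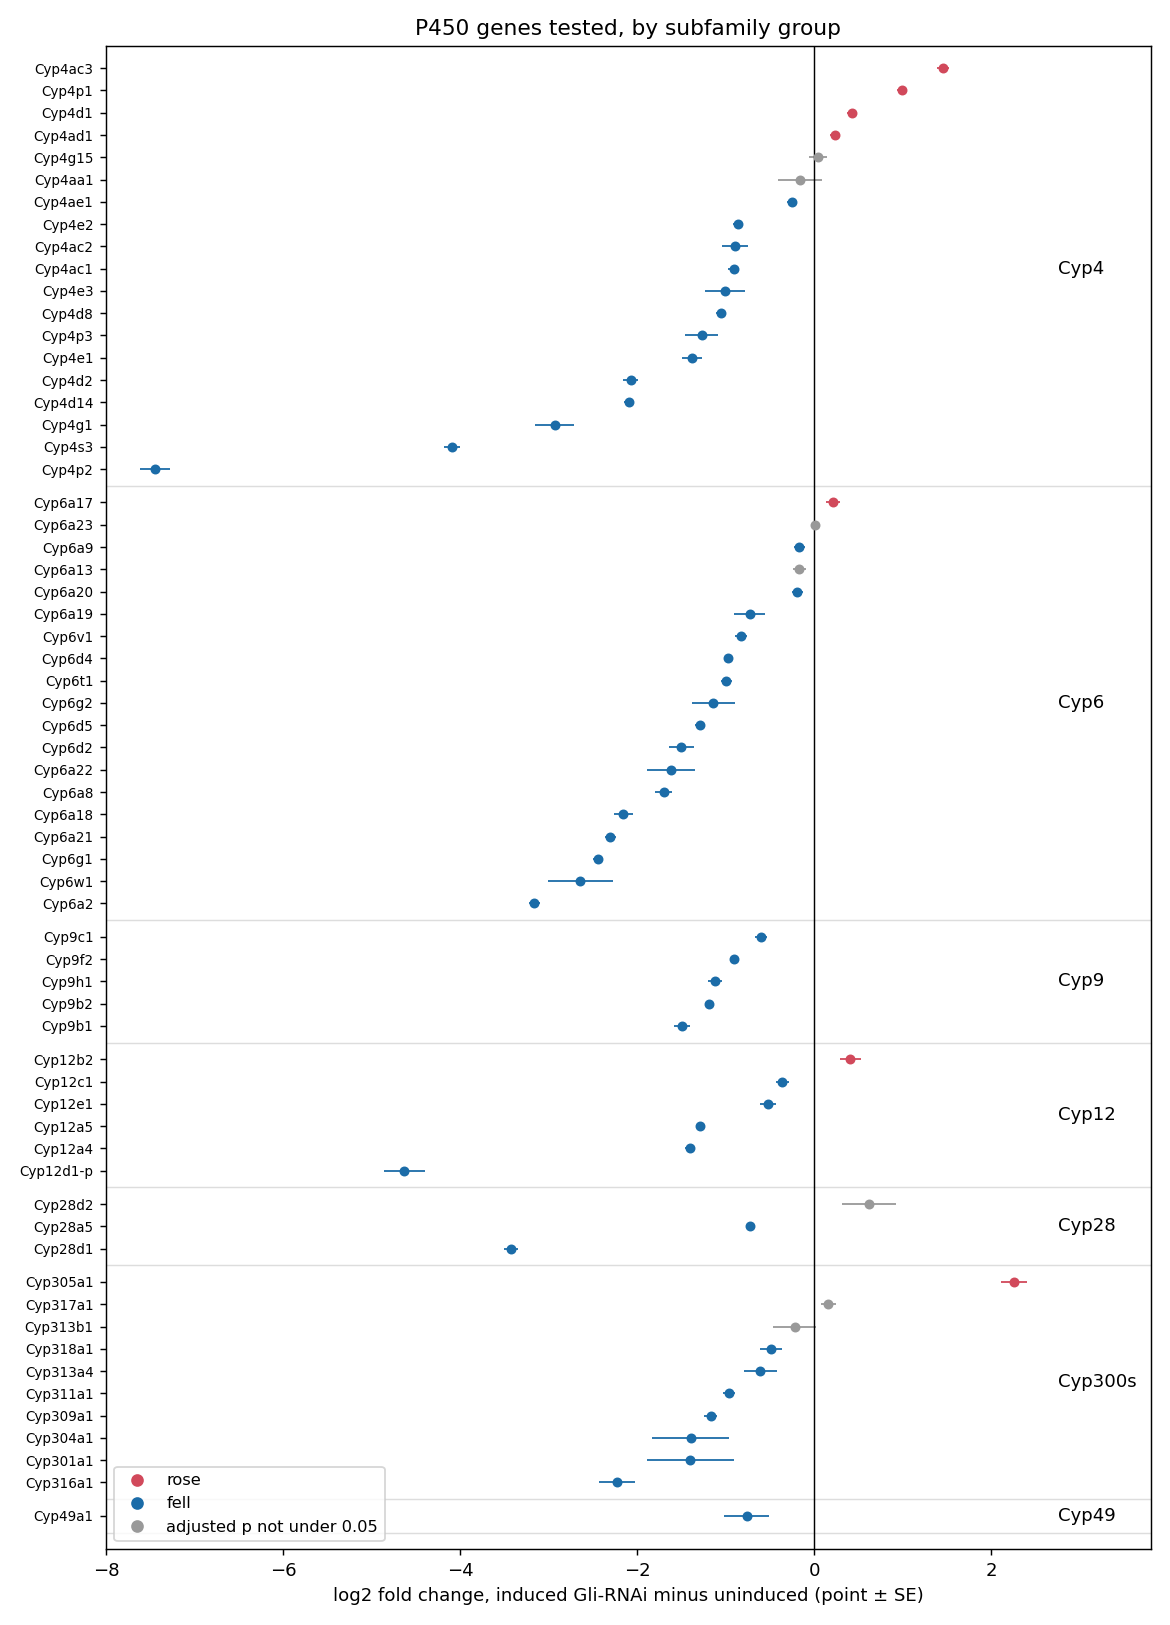
Log2 fold change, induced minus uninduced, of the 63 tested P450 genes, with 1 point per gene and its SE as a bar, ordered within each subfamily group. Red marks the 7 genes that rose, blue the 49 that fell and grey the 7 with an adjusted p not under 0.05; all 5 Cyp9 genes lie below 0, and the Cyp4 group runs from -7.45 to 1.45.

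The Cyp4 group, of which some members hydroxylate fatty acids, had the widest spread. Of 19 tested genes 13 fell, 4 rose and 2 did not pass (median -0.91), where 26.8% of all genes fell and 27.6% rose. Cyp4p2 had a normalised count of 613, 597 and 620.3 in control libraries against 2.53, 6.73 and 1.81 with RNAi induced, or 1473 raw reads against 12. It was close to absent from the induced libraries, with a log2 fold change of -7.45 ± 0.168 (SE; adjusted p = 2.3e-13), and it passed the filter through the control libraries alone. Cyp4s3 had 869, 853 and 804 in control libraries against 48.7, 52.7 and 47.2 with RNAi induced, a 17.1-fold fall with no overlap (log2 fold change -4.09 ± 0.0879, adjusted p = 1.7e-13). Cyp4g1, the enzyme that makes cuticular hydrocarbons in oenocytes, had 84.0, 81.5 and 95.1 in control libraries against 15.2, 6.73 and 9.07 with RNAi induced. Its log2 fold change was -2.93 ± 0.223 (adjusted p = 6.6e-08), and it too passed the filter through the control libraries alone. Of the other oenocyte markers Desat1, which was abundant in every library, fell at -0.47 ± 0.048, and FASN2 had -0.44 ± 0.348 and an adjusted p of 0.31; the 3 measured oenocyte markers summed to 12864 to 13910.0 normalised counts in the controls against 9331 to 9768, and their part was not tested. Cyp4d14, the highest Cyp4 gene in the controls, had 3208, 3266 and 3401 in control libraries against 787, 740.0 and 784 with RNAi induced. It fell 4.27-fold, and Cyp4d2 on the same X-chromosome cluster fell 4.20-fold.

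The remaining Cyp4 genes that fell were Cyp4e1, Cyp4p3, Cyp4d8, Cyp4e3, Cyp4ac1, Cyp4ac2, Cyp4e2 and Cyp4ae1, with log2 fold changes from -1.38 to -0.26. Cyp4e1, with 311 reads induced and 547 control, overlaps LvpH over 85 bases on the opposite strand. LvpH had 65160 reads induced and 88427 control, so reads of the pair may be shared and the value of Cyp4e1 is uncertain. Cyp4e3, linked to permethrin tolerance when acting in the tubules, was at -1.01 ± 0.226. The call for Cyp4ae1 was lost with library totals, at -0.07. In Cyp4aa1 and Cyp4g15 the log2 fold changes were -0.16 ± 0.249 and 0.04 ± 0.105, with adjusted p of 0.616 and 0.766, and both signs turned under an alternative, for Cyp4g15 without induced replicate 3 (-0.0065) and for Cyp4aa1 with library totals (0.0229).

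The direction was the opposite in 4 Cyp4 genes. Cyp4ac3 had a normalised count of 283, 298 and 288 in control libraries against 784, 785 and 816 with RNAi induced. Every induced value lay above every control value, a 2.74-fold rise (1.45 ± 0.0673, adjusted p = 3.6e-10). Cyp4p1, the neighbour of Cyp4p2, had 1829, 1802 and 1901 in control libraries against 3636, 3638 and 3689.6 with RNAi induced. Its rise was 1.98-fold (0.99 ± 0.0486, adjusted p = 6.7e-10), and in level per kilobase it moved from rank 14 in the P450 family to rank 5. Cyp4d1 had 2923, 2879 and 3140.5 in control libraries against 3917, 3997 and 4091 with RNAi induced, without overlap (0.43 ± 0.0506), and moved from rank 10 to rank 4. In Cyp4ad1 the counts were 1793, 1728 and 1951 in control libraries against 2195, 2127 and 2094 with RNAi induced. The difference was small (0.23 ± 0.0571), its adjusted p of 0.00336 ranged from 2.3e-08 to 0.0512 over the alternatives, and without control replicate 2 the gene no longer passed (0.16).

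Among Cyp6 genes, many of which are known from insecticide resistance, 16 of 19 tested fell, 1 rose and 2 did not pass (median -1.14). The shares over all genes tested were 26.8% that fell and 27.6% that rose. Cyp6a2, an insecticide-metabolising enzyme that is overexpressed in DDT-resistant strains, had a normalised count of 3121, 3031 and 3034 in control libraries against 317, 353 and 361 with RNAi induced. It fell 8.95-fold (-3.16 ± 0.0642, adjusted p = 1.0e-13), from rank 9 to rank 28. Its span overlaps the gene Epac on the same strand over 1741 bases, so reads of the pair may be shared. Cyp6g1, whose overexpression gives resistance to DDT and neonicotinoids, had 4353, 4318 and 4601 in control libraries against 821, 802 and 808 with RNAi induced, a 5.45-fold fall (-2.45 ± 0.0527, adjusted p = 1.7e-13). Cyp6a21 had 1527, 1531 and 1552 in control libraries against 319.9, 297 and 313 with RNAi induced, a 4.94-fold fall. Within each of these 3 genes the libraries of a condition lay close together and far from the other condition. Cyp6w1 had few reads, with 15.4, 21.5 and 15.6 in control libraries against 3.16, 3.36 and 1.81 with RNAi induced, and fell by 2.64 ± 0.368 on the log2 scale, again with the filter passed in the controls alone.

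The highest P450 gene of the controls, Cyp6d5, had a normalised count of 24014, 23857 and 25382 in control libraries against 10094, 9688 and 10058 with RNAi induced. It fell 2.45-fold (-1.30 ± 0.0471, adjusted p = 2.7e-11). The other Cyp6 genes that fell by at least 2-fold were Cyp6a18 at -2.16 ± 0.110, Cyp6a8, a caffeine-inducible gene, at -1.70 ± 0.101, Cyp6a22 at -1.62 ± 0.273, Cyp6d2 at -1.50 ± 0.142 and Cyp6g2 at -1.14 ± 0.243. Smaller falls were found in Cyp6t1, Cyp6d4, Cyp6v1 and Cyp6a19, from -0.99 to -0.73.

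Cyp6a23 stood apart from the other high genes. It had 14263, 14478 and 15754 in control libraries against 14957, 14841 and 14986 with RNAi induced, groups that overlapped, and a log2 fold change of 0.01 ± 0.0490 (adjusted p = 0.883, from 7.9e-04 to 0.931 over the alternatives). The sign depended on the processing: with library totals it rose at 0.20, and without control replicate 1 or 2 it was at -0.0172 or -0.0374. In the induced midgut Cyp6a23 had the highest level of the family, at 8496 ± 43.7 normalised reads per kilobase against 6069 ± 137 for Cyp6d5. Cyp6a17, which acts in temperature preference, was its neighbour and the one Cyp6 gene that rose, with 682, 621 and 583 in control libraries against 675, 770.2 and 744 with RNAi induced. Its groups overlapped (0.21 ± 0.0761, adjusted p = 0.0313, from 0.00117 to 0.123 over the alternatives), and the call was lost without induced replicate 2 (0.17), induced replicate 3 (0.20) or control replicate 2 (0.17), with the DESeq2 Wald test and with a replicate block.

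Cyp6a9 and Cyp6a20, the latter known from aggressive behaviour, fell by a small amount, at -0.17 ± 0.0619 and -0.19 ± 0.0602. With library totals these turned to 0.0242 and 0.0006. The call for Cyp6a20 was lost without induced replicate 1 (-0.19), induced replicate 3 (-0.16) or control replicate 1 (-0.18), and that for Cyp6a9 without any 1 induced library (-0.18, -0.15 and -0.16 without replicates 1, 2 and 3) or without control replicate 3 (-0.10), and also when transcripts were summed, under a replicate block and with no filter. Cyp6a13 did not pass (-0.17 ± 0.0710, adjusted p = 0.0606), passed without control replicate 2 (-0.22), and had 0.0226 with library totals.

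All 5 Cyp9 genes fell, where 26.8% of all genes tested did. Their log2 fold changes ran from -1.50 to -0.60, with a median of -1.13. Cyp9b2, the second highest P450 gene of the controls, had a normalised count of 15512, 15187 and 16276 in control libraries against 6792, 7062 and 6801 with RNAi induced, a 2.27-fold fall (-1.19 ± 0.0471, adjusted p = 6.8e-11). Its neighbour Cyp9b1 had 416, 352 and 383 in control libraries against 144, 124 and 132 with RNAi induced, a 2.82-fold fall from a lower level (-1.50 ± 0.0924). No library of one condition reached the values of the other in either gene. Cyp9f2 had 6828, 6813 and 7222 in control libraries against 3724, 3664 and 3718 with RNAi induced, and fell 1.88-fold. Cyp9h1 had 517, 478 and 531 in control libraries against 249, 219.7 and 222 with RNAi induced (-1.13 ± 0.0795), and Cyp9c1 was at -0.60 ± 0.0668.

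The Cyp12 enzymes are mitochondrial. Of 6 tested genes 5 fell and 1 rose (median -0.91), where 26.8% of all genes fell and 27.6% rose. Cyp12d1-p, which is induced by many xenobiotics, had a normalised count of 144, 141 and 187 in control libraries against 8.22, 3.36 and 5.44 with RNAi induced. It fell 24.8-fold (-4.63 ± 0.234, adjusted p = 8.7e-10), or to 22 raw reads from 374, and like Cyp4p2 it passed the filter through the control libraries alone. Its near-identical neighbour Cyp12d1-d had no reads, so reads of the pair may have been assigned to one copy, and the count of either is uncertain. Cyp12a4 had 6926, 7021 and 7716 in control libraries against 2710.1, 2711 and 2754 with RNAi induced, and Cyp12a5, next to it on 3R, had 3459, 3309 and 3617 in control libraries against 1407, 1421 and 1422 with RNAi induced. Both fell without overlap, 2.65-fold and 2.44-fold. Cyp12e1 had 185, 194 and 203 in control libraries against 142, 127 and 132 with RNAi induced, a smaller fall (-0.52 ± 0.0929), and Cyp12c1 was at -0.36 ± 0.0707. Cyp12b2 rose, with 136, 153 and 109 in control libraries against 191, 181 and 165 with RNAi induced (0.41 ± 0.118, adjusted p = 0.00917, from 0.0013 to 0.0567 over the alternatives), a call lost without induced replicate 1 (0.35).

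In the Cyp28 group 2 of 3 tested genes fell (median -0.72), where 26.8% of all genes did. Cyp28d1, linked to nicotine resistance, had a normalised count of 1733, 1642 and 1699 in control libraries against 164, 137 and 166 with RNAi induced. It fell 10.8-fold (-3.43 ± 0.0775, adjusted p = 2.4e-13), from rank 16 to rank 36. The highest gene of the group, Cyp28a5, had 4412, 4255 and 4568 in control libraries against 2687, 2657 and 2666 with RNAi induced, a 1.65-fold fall without overlap. Cyp28d2, the direct neighbour of Cyp28d1, had low counts and a log2 fold change of 0.62 ± 0.310 (adjusted p = 0.109), and Cyp28c1 had 1 read in all.

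Of the 19 genes numbered in the 300s, 10 were tested. While 26.8% of all genes tested fell and 27.6% rose, 7 of these 10 fell and 1 rose (median -0.79). The gene that rose, Cyp305a1, had a normalised count of 65.8, 38.4 and 45.2 in control libraries against 248, 224 and 218 with RNAi induced. All induced values exceeded the controls, and the 4.78-fold difference was the largest rise in the family (2.26 ± 0.149, adjusted p = 1.5e-08). Cyp309a1 had 878, 929.9 and 1047 in control libraries against 434, 436 and 395 with RNAi induced, a 2.25-fold fall. In level per kilobase it was the highest of the group in the controls, at 590.0 ± 53.9, with a range that overlapped that of Cyp311a1 at 533 ± 34.7. Cyp316a1 had 67.2, 81.5 and 68.6 in control libraries against 19.0, 11.2 and 14.5 with RNAi induced (-2.23 ± 0.204, adjusted p = 4.5e-07). All of its induced values lay below its controls, and Cyp311a1, Cyp313a4 and Cyp318a1 fell less, at -0.97 ± 0.0671, -0.61 ± 0.186 and -0.49 ± 0.126.

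Calls on the lowest genes rested on few reads, and Cyp301a1 and Cyp304a1 passed the filter through the control libraries alone. Cyp301a1, a gene of the adult cuticle, had 14.0, 14.0 and 20.3 in control libraries against 6.32, 0 and 9.98 with RNAi induced (-1.40 ± 0.492, adjusted p = 0.0269, from 0.0095 to 0.0796 over the alternatives). It lost its call without induced replicate 1 (-1.49), with library totals (-1.22) and when transcripts were summed (-1.41). Cyp304a1 had 14.0, 13.1 and 18.7 in control libraries against 9.48, 2.24 and 2.72 with RNAi induced (-1.40 ± 0.435), and lost it without induced replicate 2 (-1.14) or 3 (-1.11). Cyp49a1 had 25.2, 30.9 and 34.3 in control libraries against 12.6, 22.4 and 20.9 with RNAi induced (-0.76 ± 0.257), and lost it without induced replicate 1 (-0.48) or control replicate 2 (-0.76). In each of these 3 genes the induced values lay below the controls, and the call depended on single libraries. Cyp313a4 lost its call with library totals (-0.42) and without control replicate 1 (-0.50). Cyp317a1 and Cyp313b1 did not pass, at 0.16 ± 0.0857 and -0.22 ± 0.242 (adjusted p = 0.135 and 0.468).

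Added over the 79 genes, the P450 level was lower with RNAi induced and its make-up differed. The summed level was 69792, 69249 and 73977 normalised reads per kilobase in control replicates 1 to 3 and 40276, 40053 and 40448 in induced replicates 1 to 3. The 3 induced libraries lay within a narrow band far below the controls, whose mean was 1.76 times as high, or 1.54 times with library totals and 1.55 times in the authors' signal. As a share of all reads, P450 transcripts went from 1.18% ± 0.0167 to 0.765% ± 0.00449 (SD, n = 3). Within the summed level Cyp6 genes kept close to the same share, 47.0% ± 0.152 of it in control libraries against 46.7% ± 0.138. The summed level of Cyp4 genes was 11669.7 ± 399.8 in the controls and 9371 ± 119 with RNAi induced. It was thus lower as well, although the Cyp4 share went from 16.4% ± 0.0483 to 23.3% ± 0.185. The share of Cyp9 went from 20.1% ± 0.135 to 16.6% ± 0.235 and that of Cyp12 from 9.44% ± 0.167 to 7.05% ± 0.0152. The libraries of the 2 conditions did not overlap in these last 3 shares. Within Cyp6, the share of Cyp6d5 in the whole family went from 21.0% to 15.1% and that of Cyp6a23 from 11.9% to 21.1%.

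**Figure D3:**
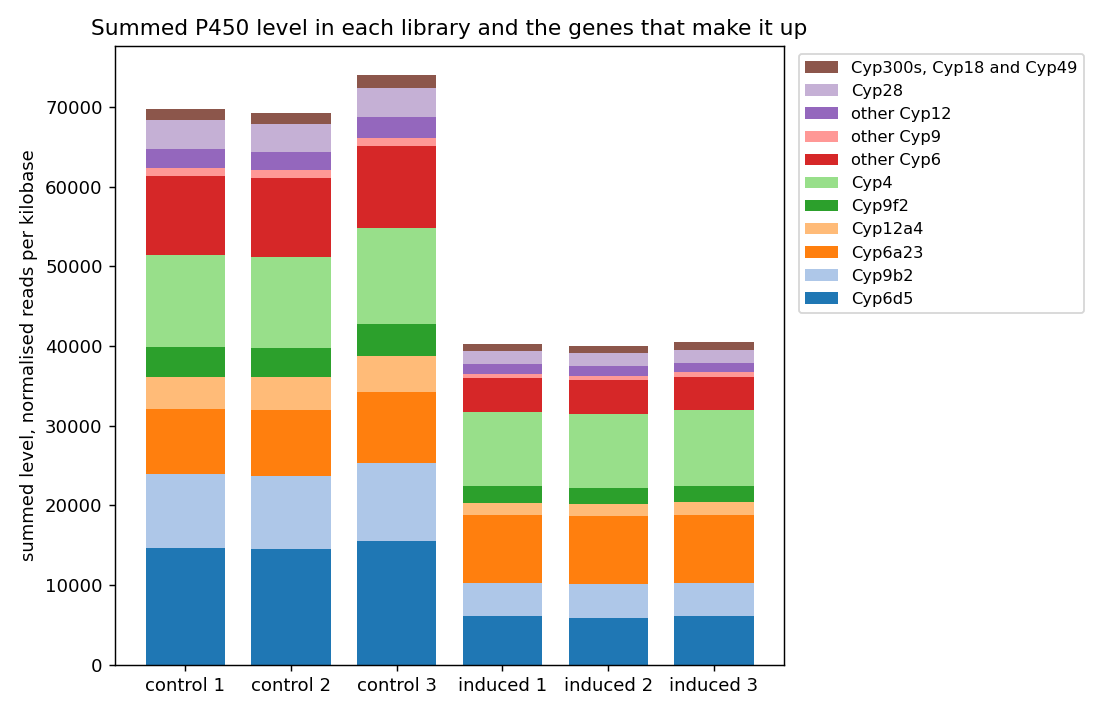
Summed P450 level of each library in normalised reads per kilobase, stacked by the 5 highest control genes and the rest of each subfamily group. The 3 control bars reach 69249 to 73977 and the 3 induced bars 40053 to 40448; the Cyp6a23 segment has about the same height in all 6 bars, while Cyp6d5, Cyp9b2 and Cyp12a4 are shorter in the induced ones.

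Many P450 genes lie in tandem, as products of gene duplication, and neighbours did not always move together. With a gap of at most 20 kb in the deposited coordinates, 44 genes formed 15 clusters. Of the 10 clusters with calls for 2 or more genes, 5 had falls only and 5 held both a gene that rose and genes that fell. In the Cyp4p cluster on 2R, which spans 6.88 kb, Cyp4p2 fell while Cyp4p1 rose and Cyp4p3 fell (-1.27 ± 0.189). In the Cyp4ac cluster (chr2L:5264001-5270329, in the build of the deposited table, which it does not name) Cyp4ac1 and Cyp4ac2 fell at -0.91 ± 0.0602 and -0.89 ± 0.149 and Cyp4ac3 rose. In the cluster chrX:2053175-2075034 Cyp4d14, Cyp4d2 and Cyp4ae1 fell and Cyp4d1 rose. The Cyp6a cluster on 2R held 9 genes over 29.4 kb, of which 6 fell, 1 (Cyp6a17, a call that did not hold in every alternative) rose, and Cyp6a23 and Cyp317a1 did not pass. The fifth cluster with both directions held Cyp4ad1, which rose (a call lost without control replicate 2), and Cyp4e1 and Cyp4e2, which fell. Clusters with falls only were Cyp9b1 and Cyp9b2, Cyp6g1 and Cyp6g2, Cyp316a1 and Cyp4d8, Cyp12a4 and Cyp12a5 (chr3R:14958174-14962862), and Cyp311a1 and Cyp318a1 (chrX:11923317-11929316). Of the 79 genes 22 overlap another locus, most on the opposite strand, and the strand setting of the counting is not given in the sources used here, so such reads cannot be told apart. Nor do these sources say how reads that match several duplicates were counted, which leaves the values of close duplicates uncertain one by one. All 3 Cyp4p genes lie inside the span of hig, which had 2 reads in the induced and 19 in the control libraries.

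**Figure D4:**
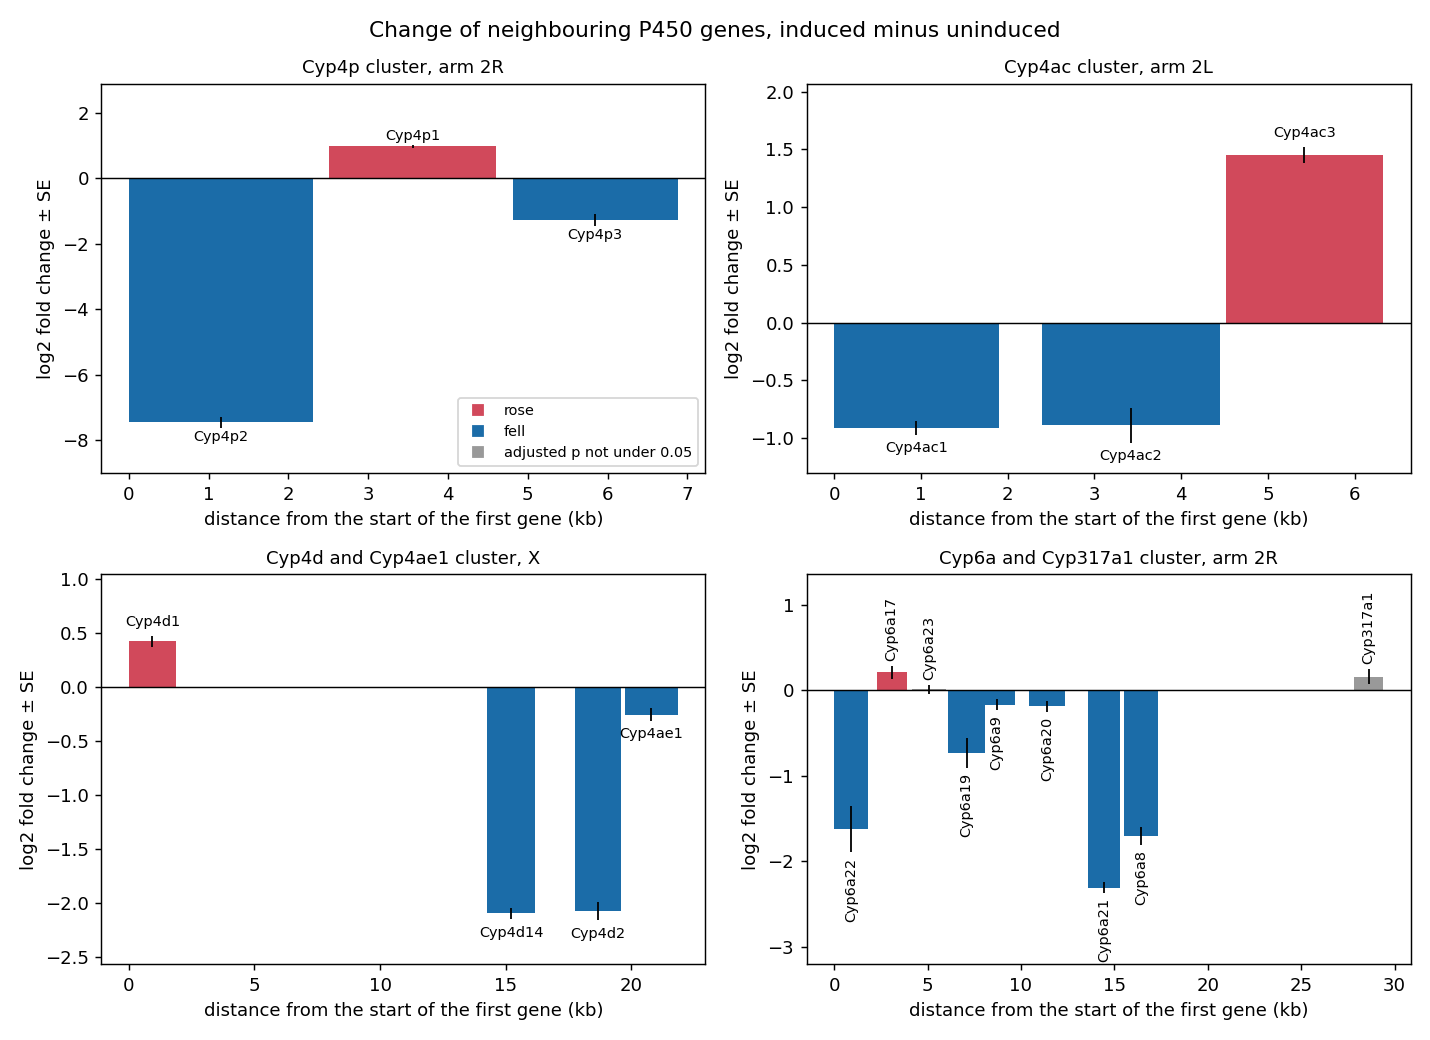
Log2 fold change ± SE of the genes in 4 tandem clusters, drawn at their distance in kb from the start of the first gene, with bar width equal to the gene's span. Red bars rose, blue bars fell and grey bars had an adjusted p not under 0.05; in each panel at least 1 gene that rose lies beside genes that fell, with Cyp4p2 at -7.45 next to Cyp4p1 at 0.99.

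The list of redox partners held genes that supply P450s with electrons and genes related to them. It had 8 names, of which Fdx1 and Fdxh stand for the same locus. Of these genes 5 were measured and 4 tested. Cpr had a normalised count of 5921, 5841 and 5425 in control libraries against 2850.4, 2899 and 2902 with RNAi induced. Its induced values were about the same in the 3 libraries and all below the controls, a 1.99-fold fall (-0.99 ± 0.0494, adjusted p = 7.6e-10). Cyt-b5-r, a cytochrome b5-related gene whose part in electron supply to P450s was not examined here, fell 6.42-fold (-2.68 ± 0.134). The mitochondrial ferredoxin genes Fdx2 and Fdx1 fell at -0.55 ± 0.0625 and -0.36 ± 0.113. All 4 tested genes of the list thus fell (26.8% of all genes did), and CG6870 was below the filter. The call for Fdx1 was lost with library totals, with the DESeq2 Wald test and without induced replicate 3 (-0.33). Cyt-b5 itself was counted in a locus shared with CG2137, which had -0.16 ± 0.058 and groups that overlapped, and the value of either gene is uncertain.

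Of 15 tested regulators of detoxification genes 7 fell and 2 rose (median -0.23), where 26.8% of all genes fell and 27.6% rose. The number that fell was 6 without induced replicate 2 or without control replicate 2, and 11 without control replicate 3. cnc, the fly counterpart of the stress factor Nrf2, had a normalised count of 7690.1, 8558 and 7462 in control libraries against 5456, 5504 and 5441 with RNAi induced (-0.53 ± 0.0543). Keap1, its inhibitor, had 371, 440.1 and 401 in control libraries against 188, 182 and 181 with RNAi induced (-1.15 ± 0.0838). Both were lower in every induced library, while their partner maf-S had -0.11 ± 0.0660 and an adjusted p of 0.184. Hr96, a nuclear receptor of the xenobiotic response, had 1195, 1209 and 1121 in control libraries against 850.3, 809 and 845 with RNAi induced (-0.49 ± 0.0595). Falls were also found for foxo at -0.73 ± 0.0637, Hnf4, a nuclear receptor of fat metabolism, at -0.41 ± 0.0548, crc, the fly ATF4, at -0.34 ± 0.0481 and the juvenile hormone receptor Met at -0.23 ± 0.0744. The paralogous receptor gce (0.31 ± 0.101) and usp, the partner of the ecdysone receptor (0.28 ± 0.0641), rose. The call for Met was lost with library totals (-0.04) and without induced replicate 2 (-0.19) or control replicate 2 (-0.21). That for gce was lost without induced replicate 1 (0.30) or 2 (0.31). Without control replicate 3, tai (-0.27) and GATAe (-0.15) passed as falls.

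Heme is the cofactor of P450s. Of 7 tested genes of heme synthesis and breakdown 3 fell and 1 rose (median -0.10), a share close to the 54.3% of all genes called in either direction. Alas, the first and rate-limiting enzyme, had a normalised count of 1835, 1794 and 1869 in control libraries against 1207, 1338 and 1237 with RNAi induced (-0.54 ± 0.0570). The porphobilinogen deaminase gene, of the same pathway, had 1153, 1048 and 924 in control libraries against 396, 451 and 421 with RNAi induced, a 2.48-fold fall (-1.31 ± 0.0843), and Pbgs fell at -0.39 ± 0.0906. These falls left no overlap between conditions, though the call for Pbgs was lost with library totals (-0.20). Ho, the heme oxygenase that breaks heme down, rose at 0.24 ± 0.0847, with an adjusted p of 0.0302 that ranged from 6.6e-04 to 0.173 over the alternatives. Its call was lost when any 1 library but control replicate 3 was left out, at 0.18 to 0.25.

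P450 genes of ecdysteroid synthesis with other symbols were scarce in the midgut. Of 8 measured genes of ecdysteroid metabolism 3 had enough reads to test and 2 fell (median -2.77), where 26.8% of all genes tested fell. shd, the P450 that turns ecdysone into its active form, had a normalised count of 75.6, 60.9 and 76.4 in control libraries against 8.22, 13.5 and 9.98 with RNAi induced (-2.77 ± 0.224, adjusted p = 1.2e-07). Eo, ecdysone oxidase, which is no P450, had 462, 422 and 472 in control libraries against 26.6, 31.4 and 21.8 with RNAi induced, a 17.0-fold fall (-4.09 ± 0.118, adjusted p = 2.5e-12). Both were lower in every induced library than in any control. dib did not pass (-0.29 ± 0.289, adjusted p = 0.514).

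**Figure D5:**
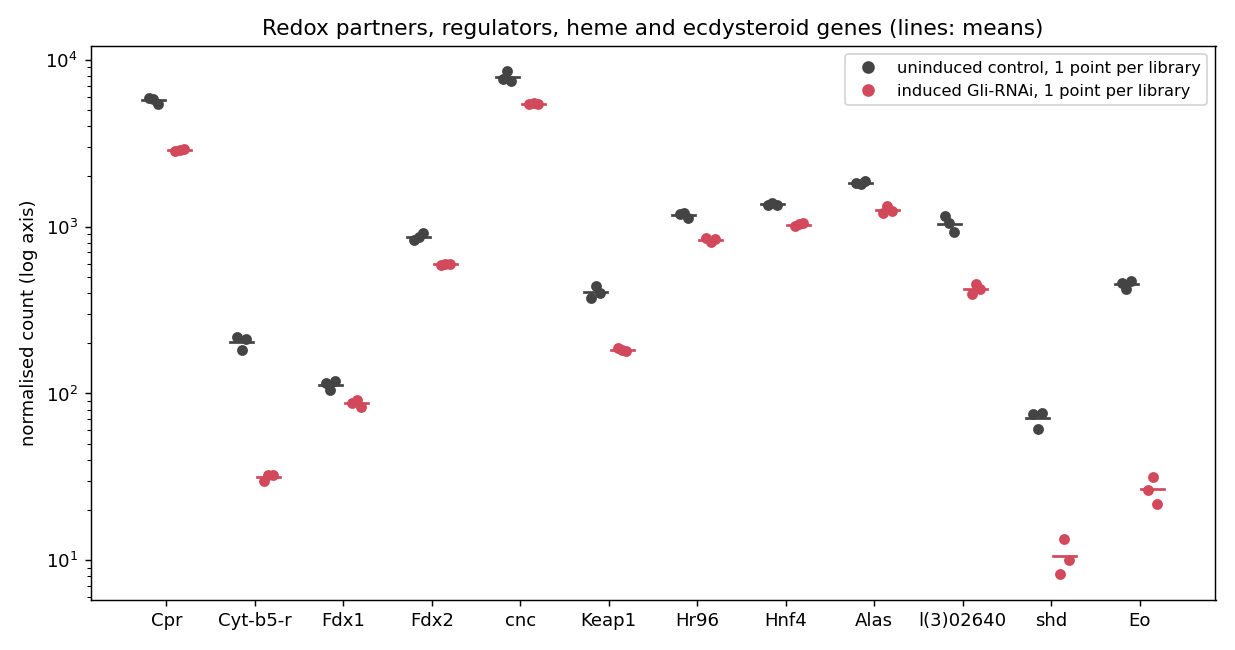
Normalised count in each library of redox partners (Cpr to Fdx2), regulators (cnc to Hnf4), heme genes (Alas and that of porphobilinogen deaminase) and ecdysteroid genes (shd, Eo), on a log axis, with control libraries in grey, induced libraries in red and a line at each mean. For all 12 genes drawn, chosen among those that fell, the induced points lie below the control points.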

How the data were processed

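Poly(A) RNA of posterior midguts was measured in 3 induced and 3 uninduced libraries. Read counts per transcript were deposited by the authors for 24047 transcripts and, per the file headers, are raw. The authors' signal, deposited beside them, is scaled by mapped reads and transcript length. A second deposited table holds the authors' log2 fold changes. DESeq was used per the submitters' processing notes. The sources used here name no aligner, strand setting or genome build. Reads in exons that transcripts share appear under each of those transcripts, so 1 transcript stood for a locus.

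Differences were tested by edgeR's quasi-likelihood method (version 4.0.16, R 4.3.3; TMM, default filter on low counts, Benjamini-Hochberg over the 8236 genes left, adjusted p under 0.05). The procedure was tested on simulated data. Normalised counts are reads divided by a factor averaging 1 over libraries, levels are normalised counts per kilobase, ± gives the SD of counts and the SE of log2 fold changes (induced minus uninduced), and the SE is the absolute log2 fold change over the square root of F. Intervals and floors cover counting error only. Alternatives were DESeq2 1.42.0 size factors, library totals, the DESeq2 Wald test, no filter, sums over transcripts, a replicate block and each library left out.

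The P450 genes, the gene lists and the tests were chosen with earlier results of these data known. Values per library are given for the highest gene of each subfamily group and up to 4 genes per direction and group with the largest absolute log2 fold change past the threshold. Values per library of Cyp6a23 and of Uro were added after they were seen. CG4319 was listed with the redox partners in error and left out, and dare was not analysed here.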

Additional observations from a re-analysis of the deposited data

How the results depend on the processing

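Of 56 P450 genes called, 46 kept call and direction under every alternative. The other 10 were Cyp12b2, Cyp301a1, Cyp304a1, Cyp313a4, Cyp49a1, Cyp4ad1, Cyp4ae1, Cyp6a17, Cyp6a20 and Cyp6a9. Over all alternatives between 43 and 50 fell and between 5 and 10 rose. With library totals 3737 of all genes rose, as did 1 Cyp28, 2 Cyp300s, 2 Cyp6 and 3 heme genes, and 0 of the Cyp18 and Cyp49 genes fell. The signs of Cyp4aa1 (0.0229), Cyp6a13 (0.0226), Cyp6a20 (0.0006), Cyp6a9 (0.0242), GATAe (0.0823), tai (0.0415) and maf-S (0.0811) turned there, and that of Cyp6a23 turned with DESeq2 size factors and the DESeq2 Wald test (-0.0099 in both). With the Wald test 0 Cyp6 and 0 heme genes rose and 0 of the Cyp18 and Cyp49 genes fell. The summed P450 level was 1.54 times as high in the controls with library totals and 1.55 times in the authors' signal, both chosen after seeing the data. Leaving out each library in turn, the number that rose ranged from 0 to 1 for Cyp12 and for Cyp6. It ranged from 1 to 2 for the regulators and from 0 to 2 for heme genes. The number that fell then ranged from 0 to 1 for Cyp18 and Cyp49 and from 6 to 11 for the regulators. The log2 fold change ranged from -0.0374 to 0.0549 for Cyp6a23 and from -0.0065 to 0.0929 for Cyp4g15. The causes were not tested. The labels do not say that replicate numbers pair the libraries. Correlations between deviations of same-numbered libraries were -0.158, 0.0473 and -0.0944, and those of differently numbered ones ran from -0.107 to 0.19. With 3 libraries per condition these values cannot decide whether the numbers pair them. With a replicate block 48 P450 genes fell and 6 rose, with 0 Cyp6 and 0 heme genes among those that rose. Genes with few reads, such as Cyp301a1 with 21 induced and 38 control reads, limit what the depth can show.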

Other observations

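The locus that joins Cyp6u1 with CG30157 carries a P450 gene but lay outside the symbol rule. Its normalised count was 515, 564 and 623 in control libraries against 450.1, 433 and 406 with RNAi induced (log2 fold change -0.40 ± 0.0797, edgeR adjusted p = 7.6e-04), and which of its genes gave the reads is uncertain. The cyclophilin gene Cyp1 had a mean normalised count of 7652 ± 552 in control libraries against 7539 ± 242 with RNAi induced (SD, n = 3).

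Of the 79 P450 genes, 11 had several transcript rows. In Cyp4d1 both rows were higher in the induced libraries, with mean normalised counts of 4002 against 2981 and of 2820 against 2074. Both rows of Cyp9f2 were lower, at 3702 against 6954 and 3694 against 6939.7. The authors' deposited table lists 38 P450 genes, 32 as lower and 6 as higher with Gli-RNAi, and the 37 of them tested here have the same sign. Both sets of values come from the same libraries, so the shared sign is no independent support.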
